A study of Mus musculus with 18 samples.

Results

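The genes of the 4 mouse Hox clusters were followed across 18 RNA sequencing libraries from colorectal tissue and tumor organoids. Members were every gene of the deposited table whose symbol was Hoxa, Hoxb, Hoxc or Hoxd followed by a number, which gave 39 of 36757 genes. The Hoxa cluster held 11 of them, the Hoxb cluster 10, the Hoxc cluster 9 and the Hoxd cluster 9. By paralog number, the name shared by matching genes of different clusters, 16 members belonged to groups 9 to 13 and 23 to groups 1 to 8.

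The study compared RNF138 fl/fl mice, which carry the floxed allele and are labelled wild type, with RNF138-/- mice. RNF138 is an E3 ubiquitin ligase. All mice were C57BL/6 and 6 to 8 weeks old at the start. In the chronic colitis model, mice drank 2% dextran sulfate sodium (DSS, a polymer that injures the colonic epithelium) for 7 days, then water for 14 days, in repeated cycles, and were killed 4 weeks after the last cycle. In the colitis-associated cancer (CAC) model, a 10 mg/kg injection of the carcinogen azoxymethane (AOM) preceded the DSS cycles. Organoids were grown in matrigel from pieces of intestine that held CAC tumors. Each of the 6 groups had 3 libraries. Nothing in the labels says whether the 3 libraries of a group came from separate animals or cultures, so p-values measure only the spread between these libraries. No untreated group was analysed here, so every value is from inflamed, tumor-bearing or cultured material. The labels call the deletion RNF138-/-, and the promoter that drove Cre is not given in the sources used here.

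Hox genes encode homeodomain transcription factors that give cells their position along the head to tail axis. Within a cluster the genes lie in the order in which they are used along the body, so the low paralog numbers mark anterior levels and group 13, at the other end of the cluster, marks the hindgut and anus. The gut keeps part of this code in the adult, in both the epithelium and the mesenchyme beneath it. Hoxb13 marks the distal colon and rectum, whereas Hoxb6 and its neighbours are used further forward.

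The parts of 4 members that encode the DNA-binding homeodomain are shown because Hoxb13, Hoxb6 and Hoxd13 set single libraries apart below, because Hoxa13 is the group 13 gene of the Hoxa cluster, and because alike sequences could share reads. Each run is the 180-base homeobox on the coding strand, read from the GRCm38 genome, and capitals mark every base that differs from the base of Hoxb13 at the same place.
Hoxb13: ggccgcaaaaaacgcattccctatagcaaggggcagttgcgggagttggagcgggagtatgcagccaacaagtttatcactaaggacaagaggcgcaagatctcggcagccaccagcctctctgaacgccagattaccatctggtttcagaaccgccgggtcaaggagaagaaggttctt
Hoxa13: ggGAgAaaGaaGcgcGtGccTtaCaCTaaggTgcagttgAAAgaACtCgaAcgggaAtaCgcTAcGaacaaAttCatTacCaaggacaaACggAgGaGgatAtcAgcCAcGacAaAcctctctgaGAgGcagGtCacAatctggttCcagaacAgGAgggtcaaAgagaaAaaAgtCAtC
Hoxd13: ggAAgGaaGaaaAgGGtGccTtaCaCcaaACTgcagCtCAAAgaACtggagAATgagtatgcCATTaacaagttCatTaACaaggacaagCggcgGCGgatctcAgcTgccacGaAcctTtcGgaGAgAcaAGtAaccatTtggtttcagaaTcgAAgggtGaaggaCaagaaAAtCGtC
Hoxb6: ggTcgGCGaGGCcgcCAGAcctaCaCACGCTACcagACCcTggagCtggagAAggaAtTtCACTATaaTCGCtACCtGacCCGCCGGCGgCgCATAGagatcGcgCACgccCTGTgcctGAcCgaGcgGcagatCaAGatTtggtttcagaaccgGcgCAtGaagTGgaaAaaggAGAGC

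These lie at chr11:96196020-96196199 (plus strand) for Hoxb13, chr6:52258928-52259107 (minus) for Hoxa13, chr2:74669930-74670109 (plus) for Hoxd13 and chr11:96300689-96300868 (plus) for Hoxb6, each in the last exon. The homeobox of Hoxb13 was identical to that of Hoxa13 at 68.9% of bases, to that of Hoxd13 at 67.2% and to that of Hoxb6 at 51.7%. Over the 39 members, pairs with the same paralog number had a median identity of 80.6% (42 pairs) and other pairs 60.6% (699 pairs). The longest identical aligned run in any pair was 52 bases, between Hoxa6 and Hoxb4, and with Hoxb13 the runs of the 3 members shown were at most 14 bases. The exons of Hoxd3 and Hoxd4 overlapped other annotated genes, each other included, over 62.8% and 52.3% of their length, so reads of these 2 could not be assigned cleanly. More than 25% of the exonic length of Hoxb3, Hoxa11, Hoxb2 and Hoxa3 (52.9%, 35.0%, 27.3% and 27.1%) overlapped other genes, chiefly genes on the opposite strand. Use of strand in the counting is not given in the sources used here, so reads of these 4 may include reads of their antisense partners.

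The libraries held 11514716 to 24390082 counts, of which 3845 to 16336 fell on Hox genes. Levels are given as counts scaled to library size by the trimmed mean of M values (TMM CPM). Rnf138 itself stood at 15.6 to 25.1 TMM CPM in RNF138 fl/fl and at 17.97 to 19.43 in RNF138-/- colitis tissue, at 21.5 to 27.5 and 39.6 to 45.7 in CAC, and at 37.7 to 55.6 and 42.8 to 50.2 in organoids. Counts over the whole gene can include exons that a deletion leaves, so they do not check the genotype labels. Epithelial markers were present in every group, with Epcam, an adhesion molecule of epithelia, at 826 TMM CPM or more in every library. Others of the 9 varied more. Lgals4 was at 3552 to 4595 TMM CPM in colitis tissue and at 365 to 661 in organoids. Krt20 ranged from 49.6 to 2229 over all libraries. Organoids were not free of stromal transcripts: the collagen gene Col1a1 stood at 3253 to 16044 TMM CPM in the 6 organoid libraries against 64.9 to 274 in the 12 tissue libraries. Endothelial markers summed to at most 9.25 TMM CPM in organoids and at least 112 in tissue. Organoids against tissue is therefore no comparison of epithelium against stroma. The 3 RNF138 fl/fl organoid libraries held Xist at 390 TMM CPM or more and no Y-linked reads, whereas the other 15 libraries held Y-linked reads and Xist at 0.584 or less, so genotype and sex cannot be told apart in organoids.

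Hox transcripts came almost wholly from 3 clusters. Of the 39 members, 13 had at least 10 counts in every library, 7 of them in the Hoxa and 6 in the Hoxb cluster, and 6 stayed under 10 counts in all libraries. Hoxa genes gave 31.3% to 56.7% of Hox reads as group means and Hoxb genes 30.7% to 51.0%. Hoxc genes, which are known from the trunk and limbs, gave at most 0.829% of the Hox reads of any library, and their highest count was 26. All 9 Hoxc members were at 0 in all 3 RNF138-/- CAC libraries, which allows up to 3 counts for each member in a library, or 0.139 TMM CPM as the mean of the 3 libraries.

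**Figure D1:**
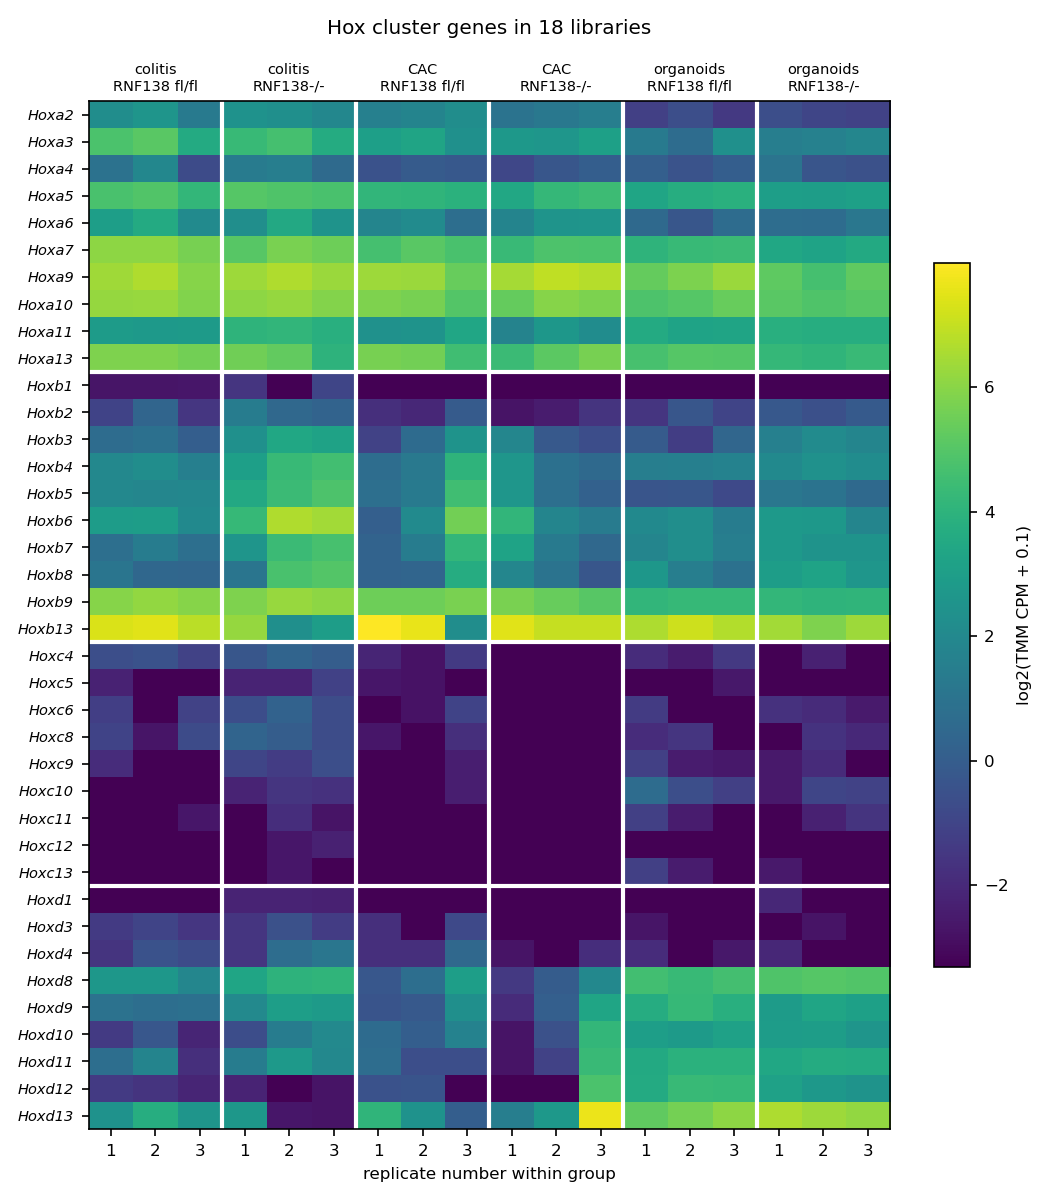
Level of 38 of the 39 Hox genes (rows, by cluster and paralog number) in each of the 18 libraries (columns, 3 replicates for each of 6 groups), as log2 of TMM CPM plus 0.1. Hoxb13 is dark and Hoxb4 to Hoxb8 bright in RNF138-/- colitis replicates 2 and 3 and in RNF138 fl/fl CAC replicate 3, and Hoxd9 to Hoxd13 are bright in organoids and in RNF138-/- CAC replicate 3.

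Scaled by exon length, so that genes can be compared with each other, Hoxb13 had the highest mean of each model over both genotypes, but not in each group. Its mean level was 41.5 ± 34.6 TMM CPM per kb in colitis, 67.6 ± 38.8 in CAC and 42.7 ± 12.4 in organoids (SD, n = 6 libraries, both genotypes). Next in colitis came Hoxb9 (25.5 ± 2.81) and Hoxa10 (20.8 ± 2.41), whose spreads were far narrower. In CAC the second was Hoxb9 (17.6 ± 2.88), and the third was Hoxd13 (15.9 ± 32.7), which owed its place to 1 library. In RNF138-/- colitis tissue alone, Hoxb6 was first at 35.1 ± 22.3 and Hoxb13 stood at 13.1 ± 17.7 (SD, n = 3). In RNF138-/- organoids alone, Hoxb13 (33.8 ± 7.23) and Hoxd13 (33.8 ± 5.20) were level. Over both genotypes of organoids the second was Hoxd13 (27.4 ± 8.68) and the third Hoxa10 (10.2 ± 1.40). Hoxb9 and Hoxa10, genes of the groups just ahead of the hindgut end, thus varied little within colitis, and the first 3 places in colitis overlapped within their spread.

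Groups 9 to 13 gave most of the Hox reads in most groups. Their share was 74.6% ± 1.95 in RNF138 fl/fl and 53.7% ± 12.8 in RNF138-/- colitis tissue, 73.3% ± 22.2 and 84.9% ± 4.13 in CAC, and 82.5% ± 1.98 and 77.8% ± 2.22 in organoids (SD, n = 3). The 2 wide spreads came from 3 libraries. RNF138-/- colitis replicates 2 and 3 were at 48.6% (exact 95% interval 47.7% to 49.5%) and 44.3% (43.4% to 45.2%), and RNF138 fl/fl CAC replicate 3 was at 47.8% (46.2% to 49.4%). The other 15 libraries were at 68.2% or more. These intervals cover counting error only. In bulk samples, fewer cells of a type and less RNA per cell cannot be told apart.

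The same 3 libraries stood apart in the Hoxb cluster. Hoxb13 was at 166, 182 and 114 TMM CPM in the 3 RNF138 fl/fl colitis libraries and at 73.9, 4.85 and 7.83 in the RNF138-/- ones. In CAC it was at 256, 199 and 4.63 in RNF138 fl/fl and 179, 128 and 128 in RNF138-/- libraries. Hoxb13 was thus under 8 TMM CPM in 3 of 12 tissue libraries and at 73.9 or more in the other 9, and the low ones fell in both models and both genotypes.

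Hoxb6, a gene of the middle of the cluster, did the opposite. It was at 7.48, 7.85 and 4.02 TMM CPM in RNF138 fl/fl and at 19.3, 101 and 86.6 in RNF138-/- colitis libraries. In CAC it was at 0.984, 4.18 and 48.7 in RNF138 fl/fl and at 17.4, 3.48 and 2.49 in RNF138-/- libraries. The 3 libraries with little Hoxb13 were thus the 3 with the most Hoxb6, and they also held more Hoxb3, Hoxb4, Hoxb5, Hoxb7 and Hoxb8 than each of the other 9 tissue libraries. Hoxb9, which lies between Hoxb8 and Hoxb13, did not separate them: it ranged from 53.1 to 75.4 TMM CPM in the 3 and from 33.5 to 71.7 in the 9. Summed over Hoxb3 to Hoxb8, the levels in the 3 were 200.4, 205 and 124 TMM CPM, and the highest of the other tissue libraries was at 51.7.

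**Figure D2:**
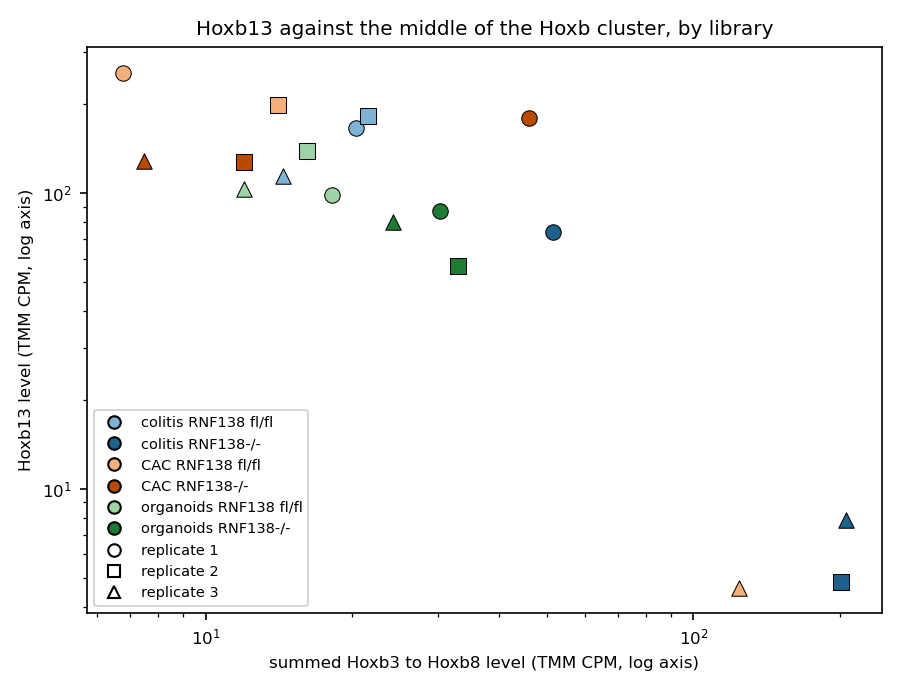
Hoxb13 level (TMM CPM, log axis) against the summed level of Hoxb3 to Hoxb8 (TMM CPM, log axis), 1 point per library, with colour for group and shape for replicate. RNF138-/- colitis replicates 2 and 3 and RNF138 fl/fl CAC replicate 3 sit alone at the lower right, with Hoxb13 under 8 and the sum at 124 or more.

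Hoxd13, the Hoxd gene of the hindgut end, was also low there: 0.0599 and 0.0515 TMM CPM (1 count each) in the 2 colitis libraries and 0.946 (10 counts) in the CAC library, against 2.76 or more in the other 9. Hoxa13 did not separate them, with at most 39.3 TMM CPM in the 3 and 20.9 to 56.3 in the 9. Outside the Hox clusters, Osr2, a zinc finger transcription factor, stood at 30.3, 61.2 and 84.3 TMM CPM in the 3 libraries and at most at 1.14 in the other tissue libraries. Markers of the small intestine also moved with them, in part.

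Of the 7 genes of that list with a row in the table, 3 were higher in each of the 3 libraries than in each of the other 9. Slc10a2, the bile acid transporter known from the ileum, stood at 64.8, 139 and 128 TMM CPM against at most 56.2. Fabp6, which binds bile acids in ileal cells, stood at 4.61, 13.5 and 4.45 against at most 2.46. Sis, the sucrase-isomaltase of the brush border, stood at 5.57, 13.2 and 1.80 against at most 0.743. Lyz1 and Defa24, genes of Paneth cells, were instead high in all 6 CAC libraries and were lowest there in RNF138 fl/fl replicate 3 (60.9 and 32.2 TMM CPM). Lct and Apoc3 stayed under 1 TMM CPM in all 12. Summed, the list was at 5.11 to 9.96 in RNF138 fl/fl and 7.11 to 173 in RNF138-/- colitis tissue, and at 227 to 755 and 2342 to 4101 in CAC. The 2 colitis libraries that stood apart were thus the highest of their model (78.5 and 173), and the CAC library was the lowest of its model (227). The part of the sampled position along the gut in the Hox differences was not tested, and the labels give every sample as colorectal. A 4th library stood apart in the Hoxd cluster, as described with CAC below, and the counts of calls without these 4 libraries are given below or with the processing alternatives.

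In colitis tissue no Hox gene passed the test between genotypes, and the largest estimates were those of Hoxb8, Hoxb6 and Hoxb7, followed by Hoxd10. Calls needed an adjusted p under 0.05 in the quasi-likelihood test of edgeR and at least a 2-fold difference. Of 26 members tested, 0 were called, where 0.0902% of all 16623 genes tested were, 0.0180% higher and 0.0722% lower. With p left unadjusted and the same limits, 12 members passed (11 higher and 1 lower), where 4.48% of all genes did. DESeq2 called 10 members, where it called 1.97% of all genes. The groups did not overlap for 10 members that were higher and 2 that were lower, where 8.86% and 8.34% of all genes were so separated. The median log2 fold change was 1.00 over the members tested and 0.02 over all genes. In the same comparison it was 2.86 over 4 small intestine markers tested, 1.48 over 3 of skeletal muscle and 1.45 over 4 of mesothelium, with 0 called. Over smooth muscle and intestinal epithelium markers it was 0.42 and 0.03, also with 0 called. The part of such cells in the Hox differences was not tested.

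The log2 fold change in colitis was 3.42 ± 0.60 (SE) for Hoxb6, with an adjusted p of 0.128 in edgeR. For Hoxb8 it was 3.74 ± 0.88 (adjusted p 0.197), for Hoxb7 3.15 ± 0.55 (0.124), for Hoxb3 2.54 ± 0.39 (0.0751), for Hoxb5 2.47 ± 0.36 (0.0598) and for Hoxb4 2.20 ± 0.42 (0.156), each from edgeR. Hoxb5 was at 3.85, 3.53 and 3.71 TMM CPM in RNF138 fl/fl and at 11.4, 21.1 and 28.7 in RNF138-/- libraries. All 3 RNF138-/- libraries were thus above the RNF138 fl/fl ones for these 6 genes, with replicate 1 nearest to them. Hoxd10 had a log2 fold change of 2.62 ± 0.82 (adjusted p 0.311), from 0.279, 0.729 and 0.124 TMM CPM in RNF138 fl/fl and 0.538, 2.64 and 3.92 in RNF138-/- libraries, which overlapped. Hoxb13 had one of -2.43 ± 0.91 (adjusted p 0.409) and Hoxd13 of -1.97 ± 1.26 (0.660). Without RNF138-/- replicate 1, edgeR called 9 members, Hoxb3 to Hoxb8 and Hoxd9 higher and Hoxb13 and Hoxd13 lower, where 0.364% of all genes were called. That leaves the 2 libraries chosen above for these same levels. Without replicate 3 it called 3, namely Hoxa11, Hoxb3 and Hoxb5, all higher, where 0.870% of all genes were called.

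In CAC tissue 0 of 25 members tested were called between genotypes, where 5.37% of all 17752 genes were, 0.546% higher and 4.83% lower. In edgeR with p left unadjusted, 0 members passed, where 16.4% of all genes did, and DESeq2 also called 0, where it called 13.3% of all genes. All 8 smooth muscle markers and 3 of 9 markers of enteric neurons and glia fell in this comparison. All 8 Hoxb members tested had estimates below 0 and 5 of 6 Hoxd members above 0, signs that leaned on single libraries. RNF138 fl/fl replicate 3 was the highest of the 6 for each of Hoxb3 to Hoxb8. RNF138-/- replicate 3 was the highest for each of Hoxd9 to Hoxd13. Over the members tested the median log2 fold change was -0.21, and over all genes it was 0.006. The Hoxb13 log2 fold change was -0.12 ± 1.05 (adjusted p 0.946 in edgeR), from the values above, in which RNF138 fl/fl replicate 3 was the lowest of 6 and replicates 1 and 2 the highest. Leaving out 1 library moved the estimate from -0.68 (without replicate 3 of that group) to 0.45 (without replicate 1), and none of these was called.

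The Hoxd end of the cluster was high in 1 RNF138-/- CAC library. Hoxd13 stood at 16.8, 5.31 and 0.946 TMM CPM in RNF138 fl/fl and at 2.76, 6.51 and 205 in RNF138-/- libraries. Hoxd12, its neighbour, had 10, 14 and 0 counts in the former and 0, 0 and 613 in the latter. Replicate 3 of the RNF138-/- group was thus far above every other tissue library for both, and it was also the highest tissue library for Hoxd10 (17.9 TMM CPM) and Hoxd11 (20.4). The Hoxd13 log2 fold change of 3.15 ± 1.71 (adjusted p 0.232) became -0.75 without it. Evx2, the homeobox gene next to Hoxd13, was at 18.4 TMM CPM in this library and at most at 2.13 in the other 11 tissue libraries.

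**Figure D3:**
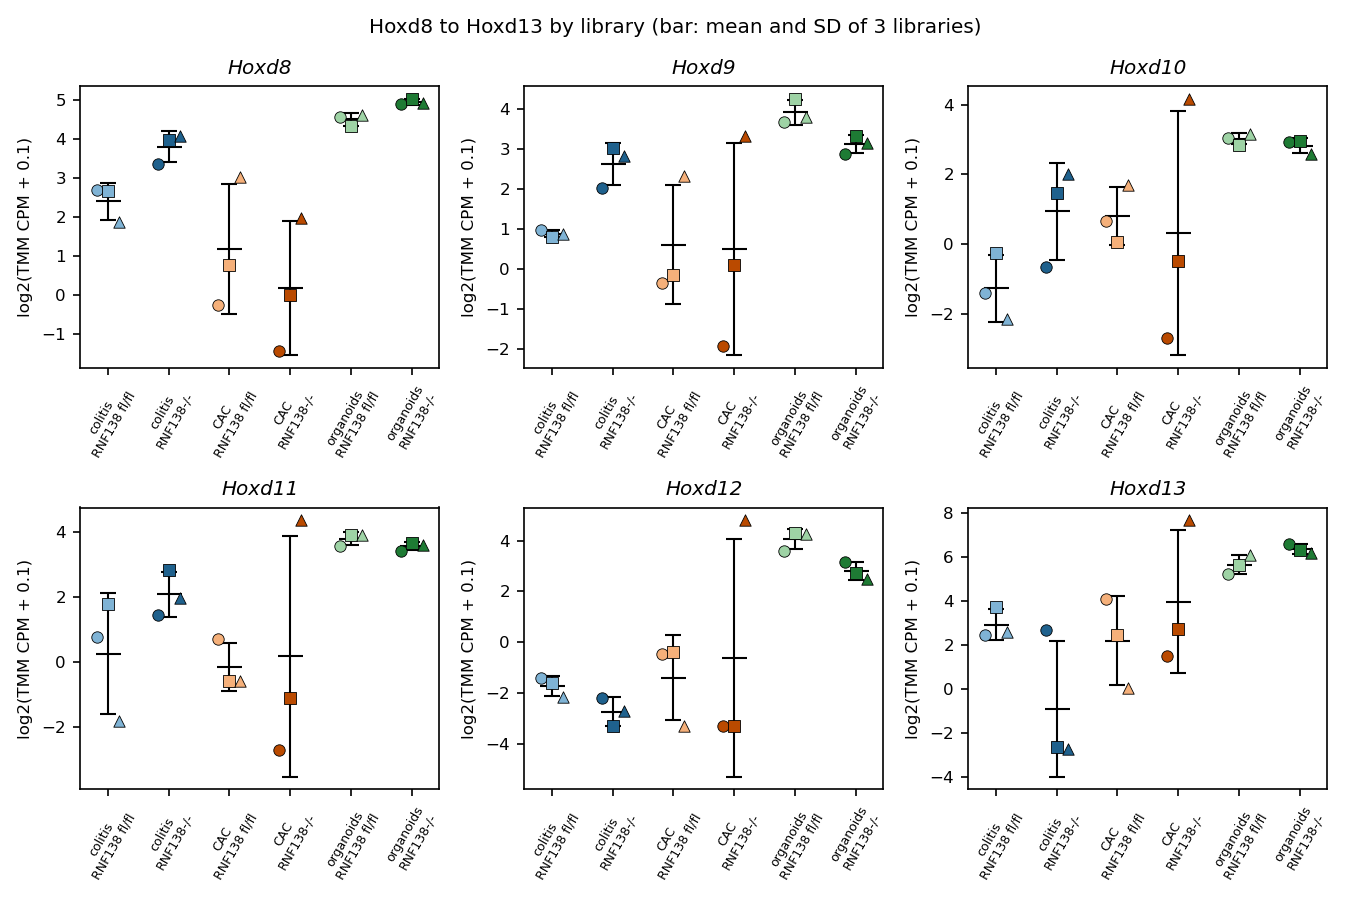
Levels of Hoxd8 to Hoxd13 as log2 of TMM CPM plus 0.1 in the 3 libraries of each group (points, with shape for replicate), with the mean and SD of the 3 values. Hoxd9 to Hoxd13 lie close together in organoids, and RNF138-/- CAC replicate 3 (triangle) lies far above the other 2 libraries of its group.

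In organoids 3 of 25 members tested were called between genotypes, 2 higher and 1 lower, where 15.0% of all 15294 genes tested were called, 7.94% higher and 7.04% lower. Hoxb3, a gene of the anterior part of the cluster, was at 0.864, 0.319 and 1.21 TMM CPM in RNF138 fl/fl and at 2.95, 4.29 and 3.43 in RNF138-/- organoids. It rose by 2.09 ± 0.42 on the log2 scale (SE, adjusted p 0.00819 in edgeR). Hoxb5 was at 0.692, 0.718 and 0.472 against 2.17, 1.90 and 1.34 TMM CPM. It rose by 1.48 ± 0.36 (adjusted p 0.0157). All 3 RNF138-/- organoid libraries were above all RNF138 fl/fl ones for both genes.

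Hoxd12, a gene of the hindgut end, went the other way in organoids. It was at 11.9, 19.8 and 19.1 TMM CPM in RNF138 fl/fl and at 8.91, 6.45 and 5.45 in RNF138-/- libraries, which did not overlap. Its log2 fold change was -1.33 ± 0.26 (adjusted p 0.00781 in edgeR). The group 13 genes had smaller differences: Hoxb13 -0.65 ± 0.20 (adjusted p 0.0339), Hoxd13 0.65 ± 0.21 (0.0459) and Hoxa13 -0.71 ± 0.14 (0.00781) all fell short of the 2-fold limit. Groups did not overlap for 7 members that were higher and 7 that were lower, where 27.6% and 25.7% of all genes were so separated. In a fit that took its spread from all 18 libraries, 0 members were called, where 10.1% of all genes were. Hoxb5 also lost its call without RNF138-/- replicate 1 (adjusted p 0.0644) or 2 (0.0618). These groups also differ in sex, and fibroblast markers moved with genotype: 7 of 9 rose and 0 fell, and their sum ranged from 9309 to 23660 TMM CPM in RNF138 fl/fl and from 41296 to 50787 in RNF138-/- organoids, with none of the 9 at 0. Of 8 smooth muscle markers 3 rose and 0 fell (median log2 fold change 1.17). The part of sex or of these cells in the Hox differences was not tested.

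The step from colitis to CAC was compared within each genotype over all 18 libraries. In RNF138 fl/fl mice 3 of 28 members tested fell and 0 rose, where 13.6% of all 19390 genes were called, 9.78% higher and 3.81% lower. Hoxa7 was at 67.4, 67.9 and 51.0 TMM CPM in colitis and at 25.4, 34.1 and 26.6 in CAC tissue, without overlap. It fell by 1.11 ± 0.20 on the log2 scale (adjusted p 0.00122 in edgeR). Hoxa3 fell by 1.66 ± 0.42 (adjusted p 0.0108), from 27.6, 34.1 and 11.9 to 8.30, 9.67 and 5.11 TMM CPM, again without overlap. Hoxa6 fell by 1.33 ± 0.45 (adjusted p 0.0484), with values that overlapped. It was called under only 7 of 16 alternative settings, and not without colitis replicate 1 (adjusted p 0.102) or 2 (0.189) or CAC replicate 1 (0.0901) or 3 (0.124). These 3 are neighbours or near neighbours in the anterior and middle parts of the Hoxa cluster. In the same comparison 3 of 4 squamous epithelium markers tested rose (median log2 fold change 4.20), as did 3 of 5 small intestine markers (4.63), and their part in the Hox differences was not tested.

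In RNF138-/- mice 16 of 28 members were called between CAC and colitis, 2 higher and 14 lower, where 37.1% of all genes were called, 17.5% higher and 19.6% lower. The median log2 fold change was -0.91 over the members tested and 0.04 over all genes. The Hoxb cluster held 7 of the 14: Hoxb2 fell by 3.72 ± 0.75 (adjusted p 0.000665) and Hoxb8 by 3.31 ± 0.97 (0.00881), and Hoxb3 to Hoxb7 fell by 2.01 to 3.15, all in edgeR. Hoxb2 was at 2.63, 1.32 and 1.13 TMM CPM in colitis and at 0.0531, 0.0809 and 0.226 in CAC tissue (1, 2 and 5 counts). Hoxb8 was at 2.03, 27.1 and 31.5 against 3.56, 1.86 and 0.723, which overlapped through colitis replicate 1.

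In the other clusters, Hoxa2, Hoxa3, Hoxa4, Hoxa11, Hoxc4, Hoxd4 and Hoxd8 were lower. Hoxd8 was at 10.1, 15.6 and 16.8 TMM CPM in colitis and at 0.266, 0.890 and 3.84 in CAC tissue. It fell by 3.08 ± 0.74 (adjusted p 0.00251). Hoxc4 had mean 0.928 TMM CPM in colitis and 0 counts in all 3 CAC libraries, so it was at least 6.69-fold lower, with 3 counts per library as the floor, and its fitted log2 fold change of -7.01 ± 0.98 depends on the prior count. Hoxd12 and Hoxd13, with log2 fold changes of 7.17 ± 1.96 (adjusted p 0.00580) and 5.09 ± 1.50 (0.00938), were called higher through CAC replicate 3. Without that library the Hoxd12 estimate was -3.12, neither gene was called higher, and Hoxd9 to Hoxd11 were called lower.

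Several of these calls were lost without 1 library. Hoxb7 was called under 7 of 16 alternative settings, and its adjusted p was 0.0871, 0.121, 0.145 and 0.148 without colitis replicate 2 or 3 or CAC replicate 2 or 3. Without CAC replicate 2 or 3, Hoxb6 had an adjusted p of 0.0636 or 0.0603 and Hoxb3 of 0.0657 or 0.0612. Hoxa2 was not called without replicate 1 of either group (0.0550 and 0.0624), nor Hoxa4 without replicate 1 or 2 of either (0.0606 to 0.0916). Without the 4 libraries that stood apart, 1 RNF138-/- colitis library is left against 2 CAC libraries, so the spread comes from the other groups and the lone library is assumed to vary as they do. Since 2 of the libraries left out were picked for high Hoxb3 to Hoxb8, smaller Hoxb differences follow from the choice, and the values are a description only. The log2 fold change was then 0.34 for Hoxb8, -0.06 for Hoxb7, -1.82 for Hoxa11 and -4.11 for Hoxd8. That fit called 12 members, all lower, where 20.1% of all genes were called lower. Smooth muscle and nerve markers moved with the same groups. All 8 smooth muscle markers fell from colitis to CAC in RNF138-/- mice, from a sum of 5277 to 15246 to a sum of 123 to 255 TMM CPM. Of 9 markers of enteric neurons and glia 8 fell, with a median log2 fold change of -3.46 over the 9. The sum over all 9, with the 1 that was not called, was 71.3 to 179 in colitis and 26.6 to 55.2 in CAC. Of 4 mesothelium markers 3 fell (median log2 fold change -8.65), and of 4 skeletal muscle markers tested 3 fell (-2.11). Of 4 squamous epithelium markers tested 3 rose and 1 fell (3.95), and of 9 intestinal epithelium markers 0 rose and 3 fell (-0.63). In RNF138 fl/fl mice 0 of the 8 smooth muscle markers were called between colitis and CAC. Their part in the Hox differences was not tested.

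**Figure D4:**
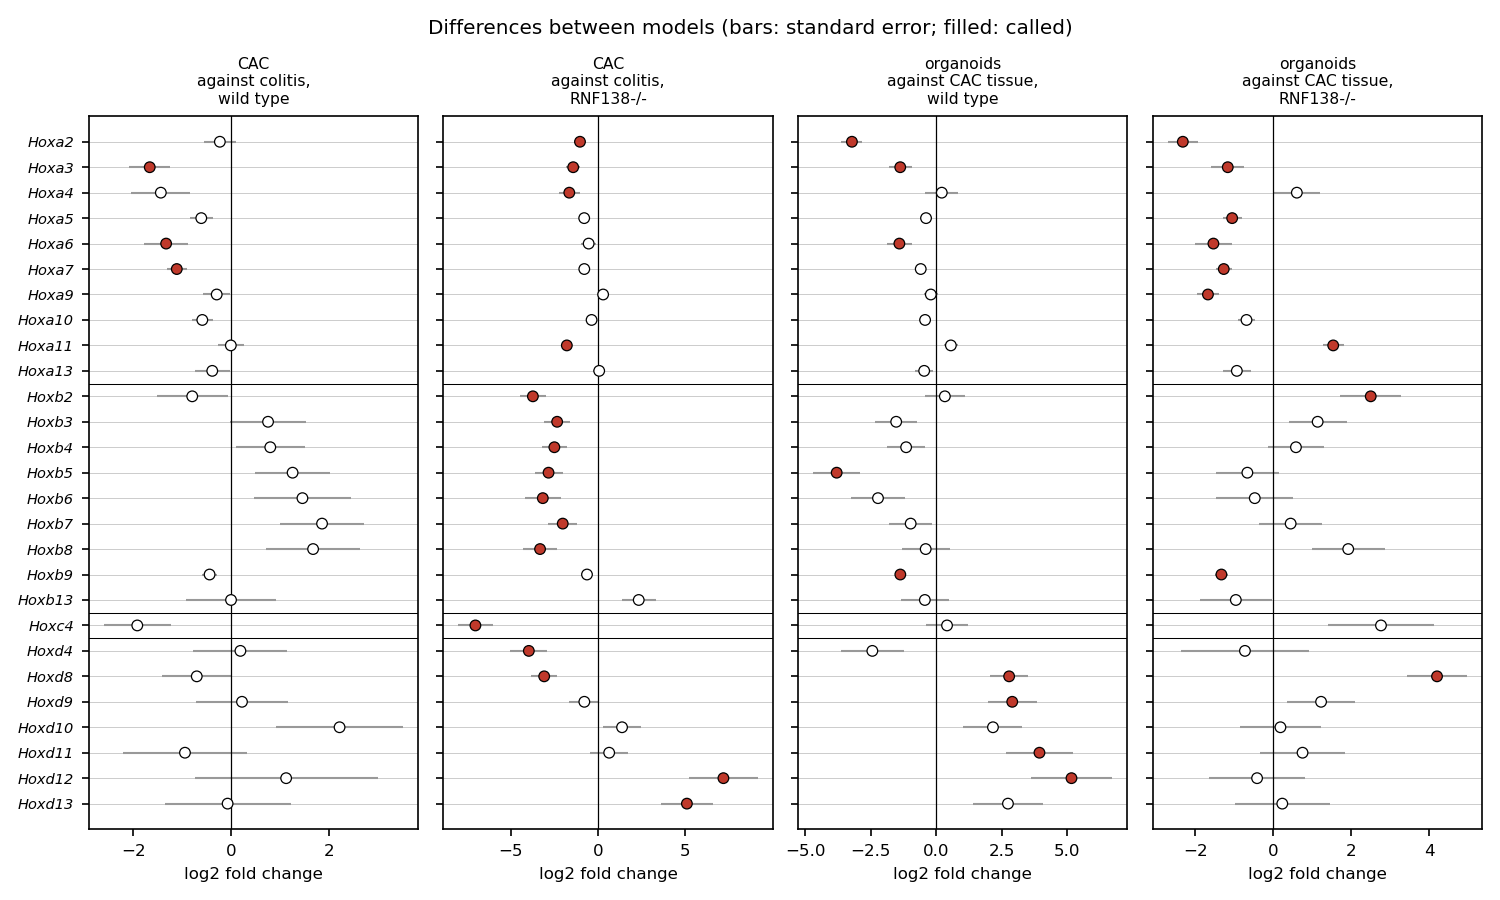
log2 fold change of 27 of the 28 Hox members tested, with its standard error, in 4 comparisons between models from 1 fit over 18 libraries. Filled points passed an adjusted p of 0.05 and a 2-fold difference in edgeR, and lines divide the clusters. Hoxb2 to Hoxb8 lie left of 0 in the RNF138-/- CAC comparison, and Hoxd8 lies right of 0 in both organoid comparisons.

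Organoids were compared with CAC tissue of the same genotype, with the CAC libraries shared with the comparisons above. In RNF138 fl/fl 10 of 28 members were called, 5 higher and 5 lower, where 44.3% of all genes were called, 17.5% higher and 26.8% lower. In RNF138-/- 11 were called, 4 higher and 7 lower, where 44.4% were called, 17.9% higher and 26.5% lower. Without the 4 libraries that stood apart, 15 members were called in RNF138 fl/fl, where 40.8% of all genes were, and 17 in RNF138-/-, where 43.5% were. In RNF138 fl/fl the calls added were Hoxb8, Hoxc10, Hoxd10 and Hoxd13 higher and Hoxb13 lower. The libraries left out were picked for their levels of Hoxb3 to Hoxb8, Hoxb13 and the posterior Hoxd genes. Added calls of these genes thus follow in part from the choice, and the counts are a description only. Leaving out the TMM scaling would shift every log2 fold change by -0.16 in the first, by -0.62 in the second and by 0.31 between CAC and colitis in RNF138-/- mice. Markers of cell types moved too. Of 9 fibroblast markers 7 rose and 1, Dpt, fell in RNF138 fl/fl, and 8 rose and 0 fell in RNF138-/-. Leukocyte markers fell (6 of 7 in each), and of 8 smooth muscle markers 7 fell in RNF138 fl/fl and 6 rose in RNF138-/-. Of 9 intestinal epithelium markers 1 rose and 3 fell in RNF138 fl/fl, and 0 rose and 2 fell in RNF138-/-. Their part in the Hox differences was not tested.

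Hoxd genes made up 4 of the 5 members called higher in RNF138 fl/fl organoids and 1 of the 4 in RNF138-/- organoids. Hoxd8 was at 0.738, 1.60 and 8.04 TMM CPM in RNF138 fl/fl CAC tissue and at 23.6, 19.9 and 24.6 in organoids of that genotype, and it rose by 2.78 ± 0.73 (adjusted p 0.00382 in edgeR). In RNF138-/- it was at 0.266, 0.890 and 3.84 in tissue and at 29.8, 32.7 and 30.2 in organoids, and it rose by 4.20 ± 0.77 (adjusted p 0.000233). Organoids and tissue did not overlap in either genotype. In RNF138 fl/fl Hoxd9, Hoxd11 and Hoxd12 rose as well, by 2.90 ± 0.94 (adjusted p 0.0138), 3.94 ± 1.28 (0.0145) and 5.16 ± 1.56 (0.00939). Hoxd9 was not called without CAC replicate 1 (adjusted p 0.0545) or 2 (0.0561).

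Hoxd13 was at 37.7, 50.1 and 68.4 TMM CPM in RNF138 fl/fl organoids, above the 3 CAC libraries of that genotype, but the difference of 2.74 ± 1.32 was not called (adjusted p 0.0835). It was called without CAC replicate 1 (3.94, adjusted p 0.0497), in a fit of the 6 libraries alone (0.0250) and without the filter on low counts (0.0226). It was also called without the 4 libraries that stood apart, which were picked in part for their Hoxd13 levels. In RNF138-/- organoids it was at 97.9, 80.9 and 72.6, between the low and the high CAC libraries. Without RNF138-/- CAC replicate 3, all of Hoxd8 to Hoxd13 were called higher in RNF138-/- organoids, where 17.0% of all genes were. That library had the highest Hoxd9 to Hoxd13 of the tissue libraries, so calls of these genes follow in part from leaving it out. The Hoxd cluster gave 28.6% ± 1.61 and 37.8% ± 3.13 of Hox reads in RNF138 fl/fl and RNF138-/- organoids (SD, n = 3), and at most 5.88% in the tissue libraries other than that one.

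Hoxa2, Hoxa3, Hoxa6 and Hoxb9 were lower in organoids in both genotypes. Without 1 library the Hoxa6 call in RNF138 fl/fl was lost (adjusted p 0.0792 without CAC replicate 2 and 0.0790 without organoid replicate 2), as was the Hoxa3 call in RNF138 fl/fl (0.0572 without organoid replicate 2) and in RNF138-/- (0.0714 to 0.0844 without CAC replicate 3 or organoid replicate 1 or 2). Hoxb9 was at 45.7, 45.0 and 53.1 TMM CPM in RNF138 fl/fl CAC tissue and at 17.6, 19.0 and 19.1 in organoids. In RNF138-/- it was at 53.2, 41.8 and 33.5 in tissue and at 17.8, 16.6 and 16.8 in organoids. All 6 organoid libraries were below all 6 tissue libraries, by 1.37 ± 0.16 (adjusted p 4.75e-06) and 1.33 ± 0.16 (5.34e-06) on the log2 scale. Hoxa2, a gene of the anterior end that is known from the hindbrain, fell by 3.22 ± 0.40 (7.05e-06) and 2.32 ± 0.39 (0.000106).

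Hoxb5 fell by 3.80 ± 0.91 (adjusted p 0.00192) in RNF138 fl/fl organoids, and by 1.68 (adjusted p 0.0314) without RNF138 fl/fl CAC replicate 3. In RNF138-/- organoids Hoxa5, Hoxa7 and Hoxa9 also fell, by 1.05 to 1.67, though Hoxa5 missed the 2-fold limit without CAC replicate 2 (-0.99) or 3 (-0.87). Hoxa11 and Hoxb2 rose, by 1.54 ± 0.27 (adjusted p 0.000155) and 2.50 ± 0.78 (0.0116). Hoxb2 rested on 1, 2 and 5 counts in CAC tissue and 11 in each organoid library. It was not among the calls with thinned counts, nor was Hoxa11 without composition scaling. A member called in one genotype and not in the other is not thereby shown to differ between them.

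The difference between genotype effects was tested as an interaction. Between CAC and colitis, 7 of 28 members had an RNF138-/- effect that was lower in CAC, and 0 had one that was higher, where 11.9% of all 19390 genes were called, 2.57% higher and 9.37% lower. Hoxa11, a gene known from the urogenital tract and limbs, was at 7.26, 6.79 and 7.12 TMM CPM in RNF138 fl/fl and at 16.1, 17.6 and 14.2 in RNF138-/- colitis tissue. In CAC tissue it was at 5.22, 5.54 and 10.4 and at 3.24, 6.23 and 4.43. RNF138-/- libraries were thus the higher in colitis without overlap and overlapped with RNF138 fl/fl in CAC. The difference of effects was -1.77 ± 0.38 (adjusted p 0.00778 in edgeR), and it was called under each of 21 alternative settings. The antisense gene Hoxa11os, which overlaps it, was at 10.2, 14.4 and 11.3 TMM CPM in RNF138 fl/fl and 23.5, 7.37 and 4.48 in RNF138-/- colitis libraries.

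The other 6 were Hoxb4 to Hoxb8 and Hoxc4, with differences of -3.29 to -5.09. These calls depended on single libraries: without RNF138 fl/fl CAC replicate 3, or without RNF138-/- CAC replicate 2, Hoxa11 was the only member called. In those fits 7.00% and 7.23% of all genes were called. Without all 4 libraries that stood apart, which leaves 1 RNF138-/- colitis library and removes those picked for high Hoxb3 to Hoxb8, the difference was 0.37 for Hoxb6, 0.02 for Hoxb7 and 0.78 for Hoxb8, given as a description only.

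Markers of other cell types moved with this interaction. All 8 smooth muscle markers had an RNF138-/- effect that was lower in CAC (median difference -5.08), as had 8 of 9 markers of enteric neurons and glia (-2.87) and 3 of 4 of mesothelium (-6.95). Of the fibroblast markers 1 of 9 was lower, and of the intestinal epithelium markers 3 of 9 were (-0.79). Their part in the Hoxa11 and Hoxb differences was not tested.

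Between organoids and CAC, 1 of 28 members was called, lower, where 18.9% of all genes were called, 11.4% higher and 7.54% lower. Hoxa9, one of the most abundant members in tissue, was at 80.2, 77.8 and 41.6 TMM CPM in RNF138 fl/fl and at 88.0, 121 and 107 in RNF138-/- CAC tissue. In organoids it was at 39.8, 54.9 and 78.5 and at 36.5, 25.3 and 37.3. RNF138-/- libraries were thus the higher in CAC and the lower in organoids, without overlap in either. The difference of effects was -1.47 ± 0.39 (adjusted p 0.0135), and it was called under each of 20 alternative settings. With it, all 8 smooth muscle markers (median difference 6.46) and 6 of 9 fibroblast markers (2.14) had an effect that was higher in organoids, and their part in the Hoxa9 difference was not tested. Between organoids and colitis 0 of 28 members were called in edgeR, where 5.71% of all genes were, 3.52% higher and 2.20% lower. With p left unadjusted 2 passed, where 14.9% of all genes did, and DESeq2 called 0, where it called 9.47% of all genes.

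**Figure D5:**
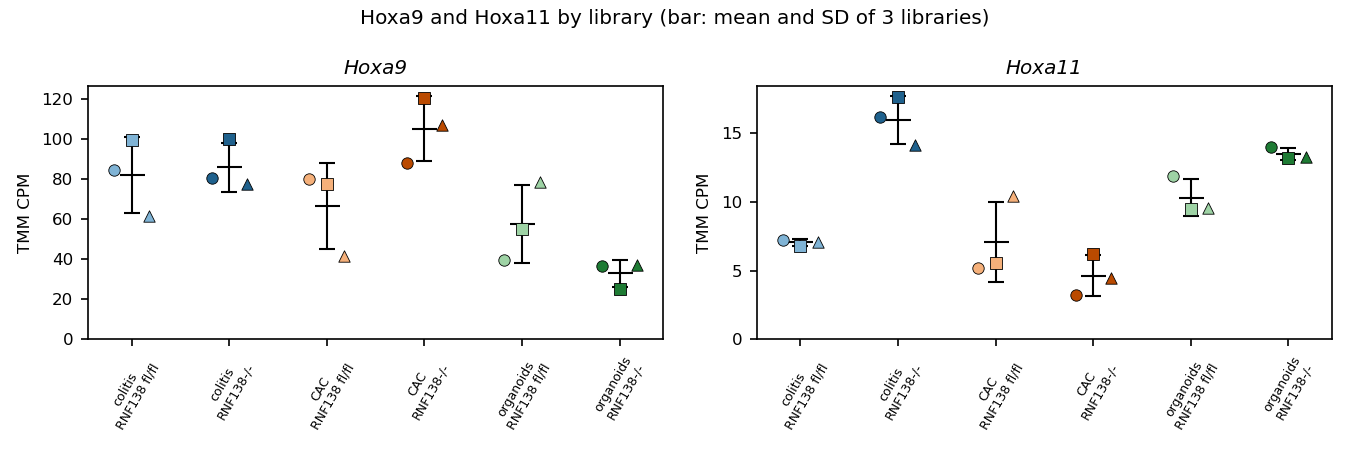
Levels of Hoxa9 and Hoxa11 (TMM CPM, axes from 0) in the 3 libraries of each group, with the mean and SD of the 3 values. For Hoxa9 the RNF138-/- libraries lie above the RNF138 fl/fl ones in CAC and below them in organoids, and for Hoxa11 they lie above them in colitis.

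Genes that work with Hox proteins were followed in fixed lists, whose counts stand against the shares of all genes given above for each comparison. The Hox cofactors are the Pbx, Meis and Pknox proteins, which bind DNA beside Hox proteins. Of 9, in organoids against CAC tissue 2 rose and 0 fell in RNF138 fl/fl, where 17.5% of all genes rose, and 6 rose and 0 fell in RNF138-/-, where 17.9% rose. In the latter their median log2 fold change was 1.36, against -0.22 over all genes. Meis1 was at 1.01, 1.58 and 6.06 TMM CPM in RNF138-/- CAC tissue and at 14.5, 16.6 and 13.6 in organoids, and it rose by 2.36 ± 0.51 (adjusted p 0.000966). In that comparison 8 of 9 fibroblast markers (median 4.50) and 6 of 8 smooth muscle markers (1.88) rose as well. From colitis to CAC in RNF138-/- mice, 1 cofactor rose and 5 fell, where 17.5% and 19.6% of all genes did, beside the 8 of 8 smooth muscle and 8 of 9 nerve markers that fell. The part of these cells in the cofactor differences was not tested. Between genotypes 0 were called in colitis and CAC, and 3 rose and 1 fell in organoids, where 7.94% and 7.04% of all genes did.

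Of the 9 regional transcription factors of the gut with a row in the table, Cdx2 and Cdx1 act upstream of Hox genes in the hindgut. Cdx2 was at 42.4, 90.9 and 240 TMM CPM in RNF138 fl/fl and at 14.1, 7.80 and 3.39 in RNF138-/- CAC tissue, where it fell by 3.95 ± 0.81 on the log2 scale (adjusted p 0.0446 in edgeR). It stood at 155 to 240 in all 6 colitis libraries and at 2.96 to 14.6 in organoids. The library with the highest Cdx2 in CAC was RNF138 fl/fl replicate 3, one of those with little Hoxb13. Between genotypes in CAC 0 of the 7 tested rose and 3 fell, Cdx1 among them, where 4.83% of all genes fell. Across the retinoic acid receptors and enzymes (9 genes tested) 0 were called between genotypes in colitis or CAC and 1 rose in organoids, and of 15 chromatin regulators of Hox clusters 0 were called between genotypes in any model.

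Homeobox genes that lie beside the clusters also differed between genotypes in organoids. Evx1, a homeobox gene beyond Hoxa13, was at 124, 162 and 135 TMM CPM in RNF138 fl/fl and at 35.5, 28.0 and 40.5 in RNF138-/- organoids. It fell by 2.06 ± 0.17 (adjusted p 0.000605 in edgeR), without overlap. Evx2, beyond Hoxd13, was at 3.34, 4.70 and 3.91 against 17.9, 21.8 and 12.7, and it rose by 2.10 ± 0.25 (adjusted p 0.00164). The groups did not overlap for Evx2 either.

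Hottip, the long noncoding RNA at the same end of the Hoxa cluster, was at 18.2, 21.6 and 21.4 TMM CPM in RNF138 fl/fl colitis tissue and at 15.8, 2.82 and 1.29 in RNF138-/- tissue, with RNF138-/- replicates 2 and 3 the lowest. In CAC it was at 11.2, 10.0 and 2.08 in RNF138 fl/fl and at 1.17, 4.29 and 10.8 in RNF138-/- tissue. Low levels were thus not particular to the 3 libraries with little Hoxb13. Of the genes of this list that were tested, 0 of 9 were called between genotypes in colitis and 0 of 8 in CAC, and 2 of 7 rose and 2 fell in organoids.

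The microRNA miR-196a is made from within the Hox clusters and is known to target Hoxb8. Its mature sequence from RefSeq is shown with its seed, bases 2 to 8, in capitals, followed by the best match among the members, which lies in the last part of Hoxb8 at chr11:96284888-96284909 (GRCm38, plus strand), with the 1 base that is not a Watson-Crick partner in capitals.
mmu-miR-196a-5p: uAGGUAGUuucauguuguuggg
Hoxb8 site: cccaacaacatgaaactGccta

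The site paired at 21 of 22 bases, and the next best member, Hoxd8, at 15. Reads at the Mir196a-1 locus, between Hoxb9 and Hoxb13, were at 3.29 to 11.9 TMM CPM in tissue and at 0.607 to 1.12 in organoids. They fell by 3.63 ± 0.37 (adjusted p 1.00e-06) in RNF138 fl/fl and by 2.39 ± 0.34 (2.49e-05) in RNF138-/- organoids against CAC tissue. Such a library does not capture mature microRNA, so these reads are of longer transcripts at the locus. Hoxb8 itself was not called in either of these comparisons (adjusted p 0.723 and 0.0861 in edgeR). In RNF138-/- organoids it was called higher with DESeq2, without the filter on low counts and in a fit of the 6 libraries alone.

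The promoter of Hoxb8 is shown because Hoxb8 had the largest estimate of the Hoxb genes in colitis and holds 2 copies of TTTATG, or CATAAA on the other strand, a core that Cdx proteins bind. These are the 250 bases before its start in RefSeq (GRCm38, chr11:96281655-96281904, plus strand), with the copies in capitals.
Hoxb8 promoter: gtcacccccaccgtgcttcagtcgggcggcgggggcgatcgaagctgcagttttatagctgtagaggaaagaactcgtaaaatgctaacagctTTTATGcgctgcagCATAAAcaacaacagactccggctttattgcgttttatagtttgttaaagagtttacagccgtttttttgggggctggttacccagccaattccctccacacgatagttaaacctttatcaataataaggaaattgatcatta

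One or more copies on either strand were found in 5 of 24 windows from 22 members (20.8%) and in 10.8% of 32851 windows of the same length from all genes. A match is a description of the letters and not a binding site. Besides Hoxb8, the windows with a match belonged to Hoxa7, Hoxd3, Hoxd4 and Hoxd11.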

How the data were processed

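The authors deposited 1 table of whole-number read counts per gene for 18 libraries of colorectal tissue and organoids. Per the submitters' processing notes, STAR 2.6.1d, HTSeq 0.11.2 and DESeq2 were used with mm10. A second deposited table held the authors' own comparisons (fold changes and p-values) and was not used. Groups came from the sample labels.

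Counts were tested with the quasi-likelihood test of edgeR 4.0.16 (R 4.3.3, limma 3.58.1), with TMM scaling, the filter filterByExpr and Benjamini-Hochberg adjustment over all genes tested. Calls needed an adjusted p under 0.05 together with a 2-fold difference or more. Genotypes were compared within each model in fits of 6 libraries, and models and interactions in 1 fit of 18. The fit was tested on simulated counts. Alternatives were DESeq2 1.42.0, other scalings, filters and thresholds, a replicate block, thinned counts, a Y-linked covariate, other sets of libraries and leaving out each library. Leaving out the 4 libraries that stood apart was chosen after seeing the data.

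Exon lengths and overlaps came from GENCODE M21 (GRCm38), and promoters and microRNAs from RefSeq (GRCm38.p6). Members named with values were those called (beyond about 10 in a comparison, the 6 with the largest change), those of paralog group 13 and the 3 highest per length in each model. Hoxb3 to Hoxb8 in colitis were named after their values were seen. The members and lists were chosen with earlier results of these data known. Counts are over all members, and 1 Hox gene and 1 gene of another list are not reported here by name.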

Additional observations from a re-analysis of the deposited data

Results flagged for a closer look

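The effect of RNF138-/- differed between CAC and colitis, by the interaction test of edgeR over 18 libraries, for 7 Hox genes. The difference of log2 fold changes was -1.77 for Hoxa11, -3.29 for Hoxb4, -4.08 for Hoxb5, -4.60 for Hoxb6, -3.86 for Hoxb7, -4.98 for Hoxb8 and -5.09 for Hoxc4. Hoxc4 was at 0 in all 3 RNF138-/- CAC libraries, so its value depends on the prior count. Without RNF138 fl/fl CAC replicate 3 only Hoxa11 of these 7 was called. All 8 smooth muscle markers, 8 of 9 of enteric neurons and glia and 3 of 4 of mesothelium also had a lower effect in CAC. The effect also differed between organoids and CAC for Hoxa9, by -1.47, beside all 8 smooth muscle and 6 of 9 fibroblast markers, whose effects were higher in organoids. In organoids genotype and sex cannot be told apart.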

How the results depend on the processing

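Numbers below are Hox genes called. With an unadjusted p the count was 12 for genotype in colitis, 7 for CAC against colitis in RNF138 fl/fl mice, and 12, 4 and 2 for the genotype effect in CAC minus colitis, organoids minus CAC and organoids minus colitis. With no fold threshold it was 11 for genotype in organoids. DESeq2 called 10 for genotype in colitis and 4 for organoids minus CAC. Without composition scaling the counts were 6 for genotype in organoids and 4 for organoids minus CAC. The split of calls between CAC and colitis in RNF138-/- mice became 4 higher and 11 lower, and that between organoids and CAC 2 and 9. Without a filter on low counts they were 11 for genotype in colitis, 4 for organoids minus CAC and 1 for organoids minus colitis, and with at least 1 CPM in 3 libraries 2 for organoids minus CAC. Thinned counts gave 3 for organoids minus CAC. With all 18 libraries in 1 fit, 1 was called for genotype in CAC and 0 in organoids. The Y-linked covariate gave 7 for genotype in colitis and 2 for CAC minus colitis, and turned the log2 fold change of Hoxd13 between genotypes in CAC to -1.20. It could not be used for contrasts with RNF138 fl/fl organoids.

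Leaving out 1 library gave 0 to 9 for genotype in colitis, 0 to 0 in CAC and 2 to 5 in organoids. It gave 7 to 12 and 9 to 14 for organoids against CAC in RNF138 fl/fl and RNF138-/-, and 2 to 4 and 14 to 17 for CAC against colitis. It gave 1 to 10 for CAC minus colitis, 1 to 4 for organoids minus CAC and 0 to 0 for organoids minus colitis. Between genotypes in CAC the log2 fold change of Hoxb13 ran from -0.68 to 0.45, being positive without RNF138 fl/fl replicate 1 or 2 (0.13), and it was 0.043 without composition scaling. That of Hoxd13 ran from -0.75 to 4.37, and that of Hoxd12 between CAC and colitis in RNF138-/- mice from -3.12 to 8.05, both negative only without RNF138-/- CAC replicate 3.

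Without the 4 libraries that stood apart, which leaves 1 RNF138-/- colitis library that is assumed to vary like the others, the counts were 1 for genotype in colitis, 1 in CAC, 15 and 17 for organoids against CAC in RNF138 fl/fl and RNF138-/-, 5 for CAC against colitis in RNF138 fl/fl, 2 for CAC minus colitis, 2 for organoids minus CAC and 1 for organoids minus colitis. CAC against colitis in RNF138-/- then gave -4.16 for Hoxd12, -0.48 for Hoxd13 and 0.34 for Hoxb8, the genotype difference in CAC gave -1.27 for Hoxd13, and CAC minus colitis gave 0.37 for Hoxb6, 0.023 for Hoxb7 and 0.78 for Hoxb8. These libraries were picked for their Hoxb and Hoxd levels, so the values without them are a description only. The cause was not tested.

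Correlations of same-numbered libraries ran from -0.11 to 0.38, with 3 of 9 above 0.1. The numbers were not taken as pairs, although all 3 were positive in colitis and all 3 in CAC. A replicate block gave 3 for genotype in colitis, 3 for CAC minus colitis, 2 for organoids minus CAC and 1 for organoids minus colitis. Under it Hoxb13 between genotypes in CAC turned to 0.71. For CAC minus colitis the 3 were Hoxa11, Hoxd4 and Hoxd8, so the calls of Hoxb4 to Hoxb8 and Hoxc4 were lost. For CAC against colitis in RNF138-/- mice it called 1 higher, Hoxb13, and 11 lower. Hoxb3, Hoxb6, Hoxb7, Hoxb8, Hoxd12 and Hoxd13 lost their calls there. Over the values of single genes, 858 kept direction and side of the threshold, 124 fell short of it, 32 newly passed and 14 reversed. Low counts limit Hoxc, whose highest count was 26.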
